A study of Rattus norvegicus with 9 samples.

Results

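The genes described here are 10 genes of the prostaglandin and lipoxygenase pathways in the kidney of the rat: Ptgs1, Ptgs2, Ptges, Ptger1, Ptger3, Ptger4, Hpgd, Alox15, Alox5ap and Ephx2. They were chosen by name, and each name matched 1 of the 30315 loci in the deposited expression table. RNA of the renal outer medulla was measured in 9 rats of the strain MCW SS, 1 library per rat, in 3 groups of 3 rats. Rats labelled 0.4% salt were on a 0.4% NaCl diet, were operated on like the rats of the other groups, and gave their tissue at the point where GapmeR and high salt would have begun. Rats labelled HS_SCR were given a scrambled GapmeR by the intra-renal route, 4 mg/kg, and ate 4% NaCl over 7 days. Rats labelled HS_DT were given GapmeRs against Dnmt3a and Tet3 by the same route, 2 mg/kg of each, and likewise ate 4% NaCl over 7 days (the unit of this time is missing in the labels and was read as days). A GapmeR is a short antisense oligonucleotide that directs RNase H to its target RNA. Dnmt3a is a DNA methyltransferase and Tet3 a methylcytosine dioxygenase. The labels state neither age nor sex. HS_SCR and 0.4% salt differ in diet, in the oligonucleotide and in the time of collection, which cannot be told apart.

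Eicosanoids are signalling lipids made from arachidonic acid that phospholipases free from membranes. Cyclooxygenases (Ptgs1, constitutive in many cells, and Ptgs2, inducible) turn it into prostaglandin H2, which terminal synthases such as Ptges turn into prostaglandin E2. In the renal medulla prostaglandin E2 acts on the receptors EP1 to EP4 to limit salt and water reabsorption and to dilate vessels, and the dehydrogenase Hpgd inactivates it. In parallel routes, lipoxygenases such as Alox15 form hydroperoxy fatty acids, Alox5ap presents arachidonate to 5-lipoxygenase for leukotriene synthesis, and the soluble epoxide hydrolase Ephx2 hydrolyses the epoxides that cytochrome P450 epoxygenases make.

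Levels are FPKM, fragments scaled to transcript length and to the mapped fragments of the library. A change is the limma estimate on the log2(FPKM + 1) scale, which understates the change of low genes, and a gene rose or fell where the adjusted p was under 0.05. Libraries differed beyond the group labels. HS_SCR replicate 3 stood apart, with a score of -51.5 on a principal component (22.1% of variance) where the scores of the other 8 ran from -2.34 to 24.0. Within a group, Spearman correlations of libraries over the tested loci were 0.979 to 0.983 for 0.4% salt, 0.931 to 0.968 for HS_SCR and 0.968 to 0.984 for HS_DT. The rat numbers of the labels fall into a lower and a higher series, and the higher holds all 3 libraries of 0.4% salt with replicate 3 of HS_SCR and of HS_DT, so the series and the diet are partly confounded. Dnmt3a ranged over 12.2 to 13.4 FPKM (0.4% salt), 5.75 to 10.3 (HS_SCR) and 8.72 to 11.02 (HS_DT), and Tet3 over 8.47 to 9.64, 5.04 to 8.20 and 7.62 to 8.54 in this order. From 0.4% salt to HS_SCR, Dnmt3a fell (-0.70 ± 0.18, SE, adjusted p = 0.0367) and Tet3 was lower without passing (-0.51 ± 0.15, adjusted p = 0.0599). Neither target was lower in HS_DT than in HS_SCR (Dnmt3a 0.37 ± 0.18, SE, adjusted p = 0.303, and Tet3 0.34 ± 0.15, adjusted p = 0.271), and neither difference passed. These transcript levels therefore do not show a lowering of the targets against HS_SCR. Every direction below is one between the libraries labelled HS_DT and the others. Slc12a1, the cotransporter that defines the thick ascending limb of this zone, was at 451 to 975 FPKM in the 9 libraries.

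In 0.4% salt, Ptger3 had the highest mean level of the 10 genes, 66.7 ± 8.76 FPKM (SD, n = 3). Alox5ap (23.1 ± 1.38) and Ptgs1 (22.5 ± 1.96) followed with ranges that overlapped, then Ptger1 (16.1 ± 1.57) and Ptges (15.3 ± 0.817), which overlapped too. Hpgd (13.8 ± 0.473) lay below them, and Ptger4 (6.14 ± 0.470) overlapped with Ptgs2 (5.07 ± 1.73). Ephx2 (1.14 ± 0.241) and Alox15 (0.760 ± 0.108) were the lowest, in that order. In HS_SCR Alox15 was the 8th of 10 by mean level, above Ptgs2 and Ephx2, and in HS_DT the 9th.

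**Figure D1:**
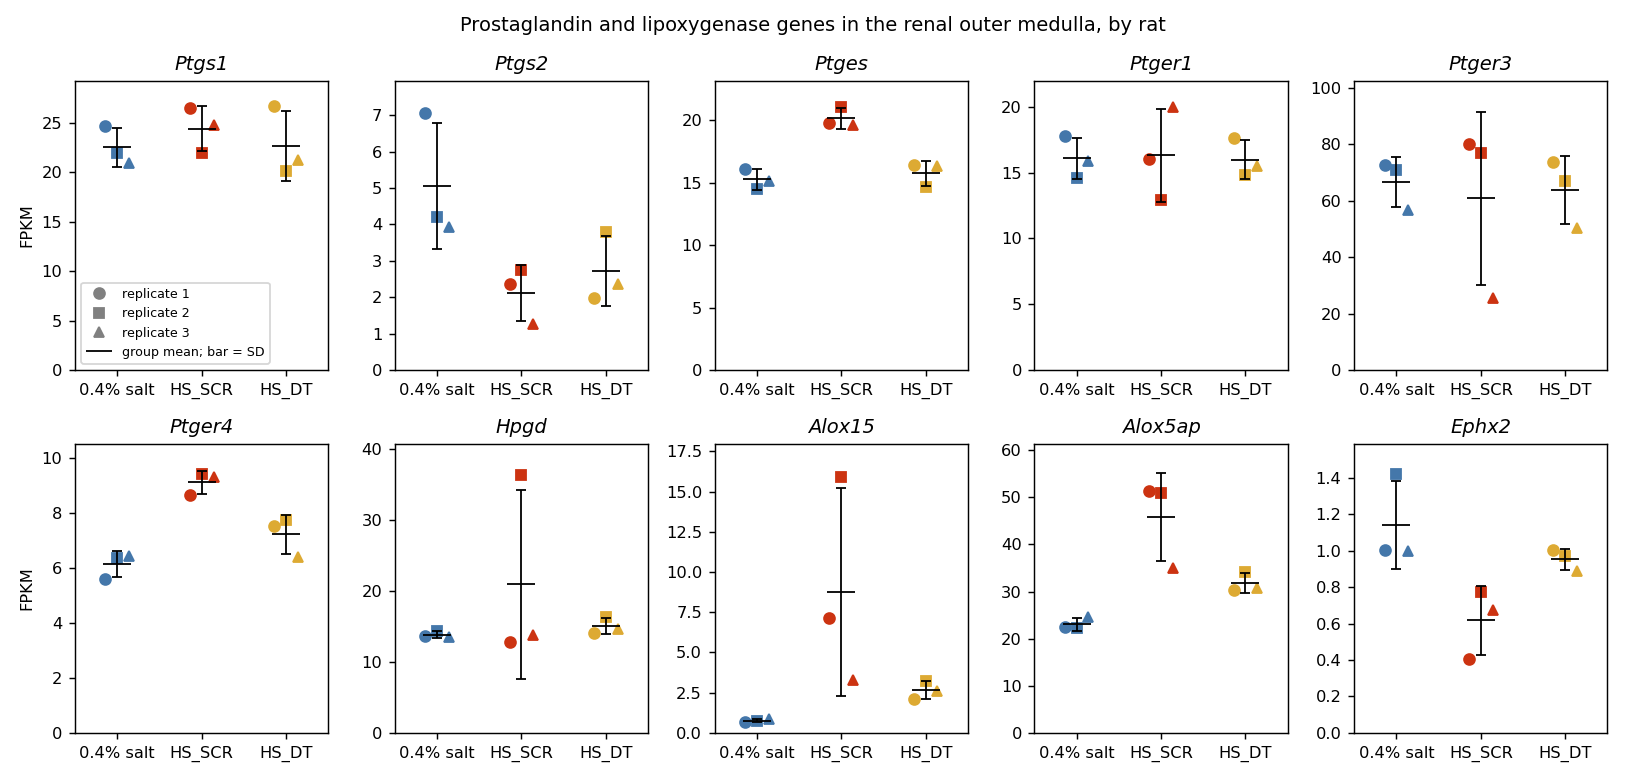
Level of each of the 10 genes in FPKM (vertical axis from 0) in each rat of the 3 groups, with the group mean and its SD, n = 3. The HS_SCR points of Alox15, Alox5ap, Ptges and Ptger4 lie above all 0.4% salt points, and those of Ptgs2 and Ephx2 below.

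Between HS_SCR and 0.4% salt, 4 of the 9 genes in the fit rose and 0 fell: Alox15, Alox5ap, Ptges and Ptger4. Of all 14338 loci tested, 13.1% were called in this comparison, 1175 higher and 699 lower, and the number called ran from 345 without 0.4% salt replicate 2 to 5192 without HS_SCR replicate 3. The median change of the 9 genes was 0.38, against 0.02 over all tested loci. FPKM ranges of both groups were apart for 6 of the 10 genes, 4 higher and 2 lower in HS_SCR, where 33.5% of tested loci had ranges apart. Ephx2, with a mean of 0.904 FPKM over the 9 libraries, was below the minimum of 1 FPKM for the fit and is given as values.

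**Figure D2:**
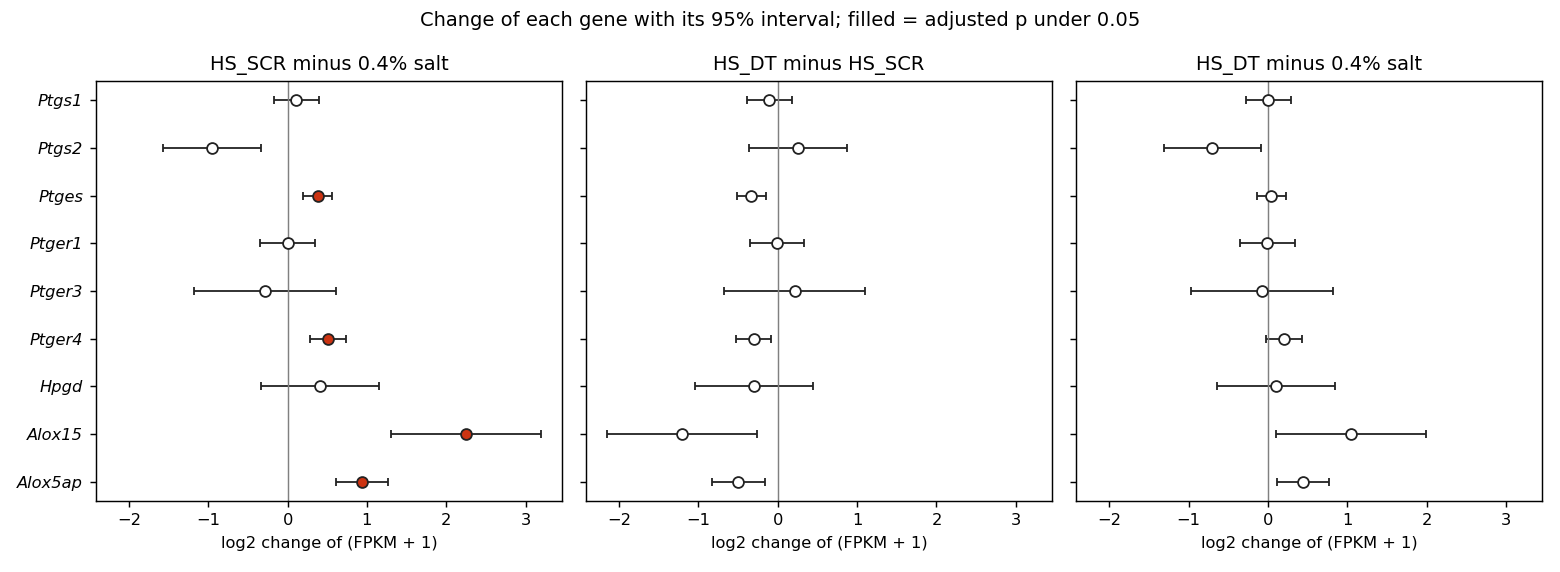
Change of the 9 genes in the fit on the log2(FPKM + 1) scale (horizontal axis), with its 95% interval, in the 3 comparisons; filled points have an adjusted p under 0.05. Filled points are found only for Ptges, Ptger4, Alox15 and Alox5ap in HS_SCR minus 0.4% salt.

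The promoters of Ptgs2 and Ptges are shown because both enzymes act one after the other in prostaglandin E2 synthesis while their levels in HS_SCR lay on opposite sides of those in 0.4% salt, and because the GapmeRs were aimed at enzymes that write and oxidise methylcytosine at CpG sites. Each line gives the 250 bases before the gene's start, 5′ to 3′ on the gene's strand, from RefSeq on build GRCr8, at chr13:64713813-64714062 (plus strand) for Ptgs2 and chr3:34586988-34587237 (minus strand) for Ptges. Capitals mark matches to the motifs searched on both strands.
Ptgs2: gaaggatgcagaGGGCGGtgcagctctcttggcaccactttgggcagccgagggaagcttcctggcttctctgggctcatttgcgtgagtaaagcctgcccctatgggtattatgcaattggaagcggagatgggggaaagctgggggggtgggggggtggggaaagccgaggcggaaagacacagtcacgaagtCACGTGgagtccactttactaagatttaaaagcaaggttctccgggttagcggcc
Ptges: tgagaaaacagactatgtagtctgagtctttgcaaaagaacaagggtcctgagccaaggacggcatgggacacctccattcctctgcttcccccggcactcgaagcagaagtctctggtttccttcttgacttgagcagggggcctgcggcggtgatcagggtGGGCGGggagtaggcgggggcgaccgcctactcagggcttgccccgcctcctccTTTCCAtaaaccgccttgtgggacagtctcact
The Ptgs2 window holds 10 CpG and the Ptges window 11, against a median of 5 (quartiles 2 and 15) over 33469 rat promoters of that length. The motifs were TATAAA (a core promoter element, in 12.9% of all promoters), GGGCGG (a GC box, 30.5%), CACGTG (an E-box, 5.59%), TGACGTCA (a cyclic AMP response element, 1.59%) and TGGAAA (the core of an NFAT site, 19.7%). They share no letters with each other in these 2 windows. Ptgs2 has 1 GC box, 232 bases from the start by its nearer end, and 1 E-box, 49 bases from it. Ptges has 1 GC box, 81 bases from the start, and 1 NFAT core on the other strand, 27 bases from it. A match is a description of letters and not a shown binding site. Methylation of these bases was not measured in the values used here. Of the 10 genes, 7 matched the RefSeq promoter table. Among the others, Hpgd has 12 CpG in its window, Ptgs1 has 9 and Ptger1 has 7. The Ptger4 window is not described, since its annotated start may be that of the coding sequence. Ptger3 has 26, more than 91.4% of all promoters. Alox15, Alox5ap and Ephx2 were not matched.

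Of the enzymes that make prostaglandin E2, Ptges rose in HS_SCR, Ptgs2 was lower without passing the test, and Ptgs1 overlapped between the groups. Ptges is the inducible microsomal prostaglandin E synthase (chr3:15086725-15098072 on build rn5, as are all positions below). Its level was 16.1, 14.5 and 15.2 FPKM in 0.4% salt, 19.7, 21.1 and 19.6 in HS_SCR, then 16.4, 14.6 and 16.3 in HS_DT, in replicate order. The HS_SCR rats lay above all others, while those of HS_DT and 0.4% salt overlapped. The change from 0.4% salt to HS_SCR was 0.38 ± 0.08 (SE, 95% interval 0.20 to 0.56, adjusted p = 0.0215). The call was lost in the fit of only those 2 groups (adjusted p = 0.0662) and without 0.4% salt replicate 1 (0.0589), replicate 2 (0.0935) or replicate 3 (0.0617) or HS_SCR replicate 2 (0.0671), with adjusted p from 0.00883 to 0.0935 over 19 alternatives.

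Ptgs2 (chr13:72316142-72324485), the cyclooxygenase that in the medulla is known from interstitial cells and in the cortex from the macula densa, was at 7.06, 4.21 and 3.93 FPKM in 0.4% salt. It was at 2.35, 2.75 and 1.28 in HS_SCR and at 1.99, 3.80 and 2.38 in HS_DT. All 6 rats on 4% NaCl lay below the 3 on 0.4% NaCl, while HS_SCR and HS_DT overlapped. Mean Ptgs2 was 2.38-fold lower in HS_SCR than in 0.4% salt, and the fitted difference was -0.95 ± 0.27 (95% interval -1.57 to -0.34, adjusted p = 0.0515), which did not pass. It was on the other side of the threshold in 2 of 18 alternatives. These were the series of rat numbers as a factor (-1.22, adjusted p = 0.0475) and a block for replicate numbers (-0.95, adjusted p = 0.0498). Over the 18 the adjusted p ran from 0.0475 to 0.157, with a lower value in HS_SCR in all 18. Between HS_DT and 0.4% salt the difference was -0.70 ± 0.27 (adjusted p = 0.592).

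Ptgs1 (chr3:20869896-20897103), the constitutive isoform, was at 24.7, 21.9 and 20.9 FPKM in 0.4% salt, 26.4, 22.0 and 24.8 in HS_SCR, then 26.6, 20.1 and 21.2 in HS_DT. The 3 ranges overlapped. The interval of its change from 0.4% salt to HS_SCR was -0.17 to 0.39 (estimate 0.11, adjusted p = 0.564). Per rat, the ratio of Ptgs1 to Ptgs2 FPKM was 3.49, 5.20 and 5.31 in 0.4% salt, 11.2, 7.97 and 19.4 in HS_SCR, then 13.4, 5.28 and 8.94 in HS_DT. Ranges of HS_SCR and 0.4% salt were apart, and those of HS_DT and 0.4% salt overlapped. An exact two-sided permutation test gave p = 0.1 for the first (adjusted p = 0.3 over 9 such tests), the smallest that 3 against 3 rats allow. The 3 ratios and shares tested in this way were chosen after the values were seen.

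Among the prostaglandin E2 receptors, Ptger4 rose in HS_SCR, and Ptger1 and Ptger3 did not pass in either direction. Ptger4 (chr2:73974383-73987238) encodes EP4, a receptor that raises cyclic AMP. It was at 5.60, 6.38 and 6.44 FPKM in 0.4% salt, 8.65, 9.44 and 9.32 in HS_SCR, then 7.55, 7.74 and 6.41 in HS_DT. HS_SCR lay above both other groups, and HS_DT overlapped with 0.4% salt at its lowest rat. The change to HS_SCR was 0.51 ± 0.10 (95% interval 0.28 to 0.73, adjusted p = 0.0162). It was not called in the fit of those 2 groups (adjusted p = 0.0537), when the series of rat numbers entered as a factor (0.0512), or without 0.4% salt replicate 1 (0.0691), 0.4% salt replicate 2 (0.0618) or HS_SCR replicate 2 (0.0511). The adjusted p ran from 0.0101 to 0.0691 over 19 alternatives.

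Ptger3 (chr2:282680109-282760708) encodes EP3, a receptor that lowers cyclic AMP and opposes vasopressin in the distal nephron. It was at 72.5, 70.9 and 56.6 FPKM in 0.4% salt, 80.0, 77.1 and 25.5 in HS_SCR, then 73.8, 67.2 and 50.4 in HS_DT. The value of 25.5 belongs to HS_SCR replicate 3, while the other 2 HS_SCR rats had the highest values of all 9. The estimated change from 0.4% salt to HS_SCR was -0.29 ± 0.39 (95% interval -1.18 to 0.60, adjusted p = 0.640), without HS_SCR replicate 3 it was 0.24 (adjusted p = 0.288), and when the series of rat numbers entered as a factor it was -0.97 (adjusted p = 0.0591). Over 19 alternatives the adjusted p ran from 0.0591 to 0.837. That rat also had the lowest summed level of the 12 thick ascending limb markers, 1433 FPKM, against 2723 and 3496 in the other HS_SCR rats. The gap is mostly in Umod, uromodulin (381 FPKM against 1283 and 2120), while Slc12a1 was at 482 in that rat, against 451 and 473. Whether this has a part in the Ptger3 value was not tested. Of the summed FPKM of the 4 prostaglandin E2 receptors, Ptger3 made up 70.1% to 75.7% in 0.4% salt, 67.4% to 72.8% in HS_DT and 73.4%, 75.2% and 42.4% in HS_SCR.

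Ptger1 (chr19:35778060-35810655) encodes EP1, a receptor that acts through calcium. Its level is uncertain, since reads of overlapping genes may not be told apart in this span. It was at 17.7, 14.6 and 15.9 FPKM in 0.4% salt, 16.1, 12.9 and 20.0 in HS_SCR, then 17.6, 14.8 and 15.5 in HS_DT, with overlapping ranges. The interval of its change from 0.4% salt to HS_SCR was -0.34 to 0.35 (adjusted p = 0.994).

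Neither of the 2 genes of breakdown was called. Hpgd (chr16:37259044-37296901) was at 13.6, 14.4 and 13.5 FPKM in 0.4% salt, 12.7, 36.3 and 13.8 in HS_SCR, then 14.1, 16.3 and 14.6 in HS_DT. A single rat, HS_SCR replicate 2, stood above the other 8. The estimated change was 0.41 ± 0.33 (95% interval -0.34 to 1.15, adjusted p = 0.421) and -0.06 without that rat (adjusted p = 0.748). Ephx2 (chr15:48799890-48836847) was at 1.00, 1.42 and 0.999 FPKM in 0.4% salt, 0.406, 0.775 and 0.674 in HS_SCR, then 1.00, 0.971 and 0.889 in HS_DT. The HS_SCR rats lay below both other groups at these low levels. Fitted without a minimum level, the difference from 0.4% salt was -0.40 ± 0.12 (adjusted p = 0.0810).

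The lipoxygenase pathway genes Alox15 and Alox5ap had the 2 largest rises of the 9 genes of these pathways in the fit. Alox15 (chr10:56704494-56713186), a lipoxygenase of macrophages and eosinophils that acts on arachidonic and linoleic acid, was at 0.676, 0.723 and 0.882 FPKM in 0.4% salt. It was at 7.13, 15.9 and 3.26 in HS_SCR and at 2.09, 3.23 and 2.63 in HS_DT. The 3 groups did not overlap, with HS_SCR highest, although HS_SCR replicate 3 lay just above the highest HS_DT rat. Mean Alox15 was 11.5-fold higher in HS_SCR (8.76 ± 6.46 FPKM, SD) than in 0.4% salt (0.760 ± 0.108), a ratio over a low level. The fitted change was 2.25 ± 0.41 (SE, 95% interval 1.31 to 3.19, adjusted p = 0.0145), the 23rd largest rise of the 14338 loci. It was not called in the fit of those 2 groups (adjusted p = 0.0543) or without 0.4% salt replicate 1 (0.0572) or replicate 2 (0.0615), and the estimate ran from 1.74 to 3.09 and the adjusted p from 0.00164 to 0.0615 over 18 alternatives.

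Alox5ap (chr12:8950711-8974741), the 5-lipoxygenase activating protein of myeloid cells, was at 22.5, 22.2 and 24.7 FPKM in 0.4% salt, 51.4, 51.0 and 34.9 in HS_SCR, then 30.4, 34.2 and 30.7 in HS_DT. The order of the groups was that of Alox15, again with HS_SCR replicate 3 close to the HS_DT rats. Mean Alox5ap was 1.98-fold higher in HS_SCR than in 0.4% salt, with a change of 0.94 ± 0.14 (95% interval 0.61 to 1.27, adjusted p = 0.00875). Of the 4 genes that rose, only Alox5ap passed in all 19 alternatives, with adjusted p from 0.00136 to 0.0462. Its partner Alox5, the 5-lipoxygenase itself, did not pass: it was at 3.53, 2.70 and 4.01 FPKM in 0.4% salt, 4.74, 3.31 and 0.839 in HS_SCR, then 4.72, 4.69 and 4.39 in HS_DT.

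**Figure D3:**
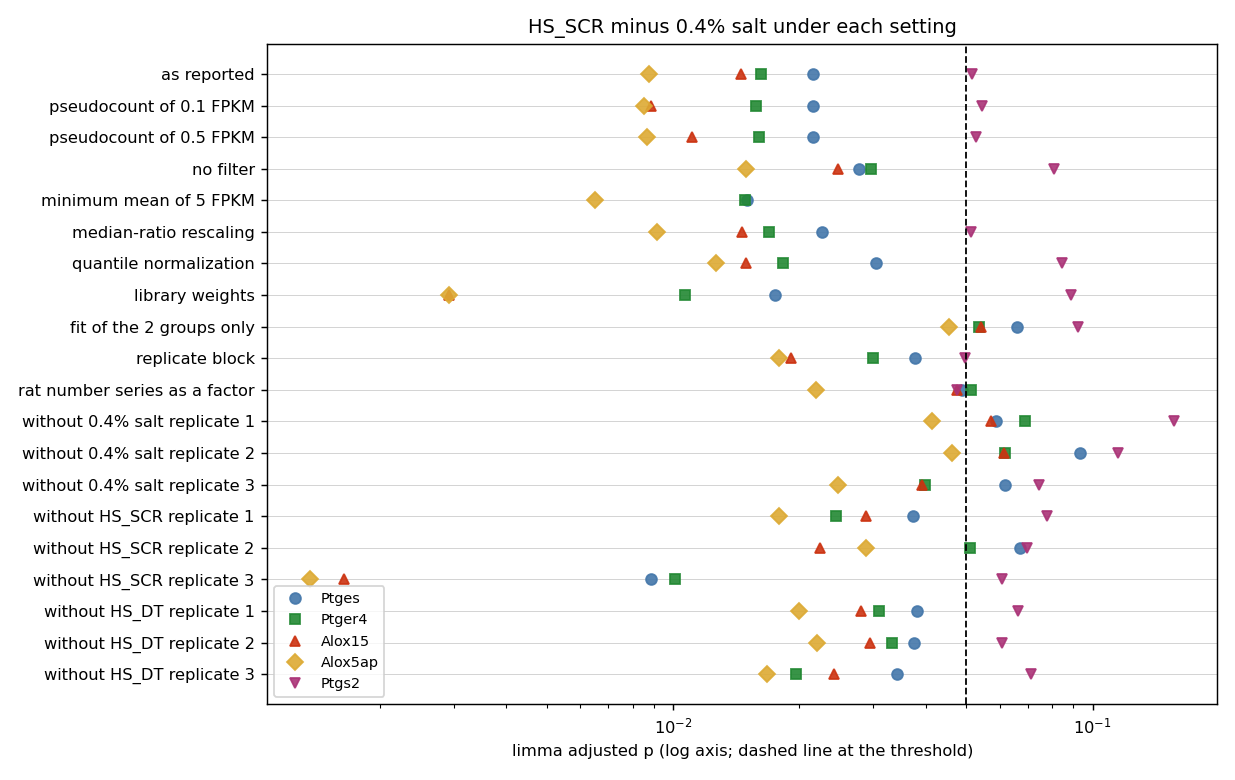
Adjusted p of limma (horizontal log axis, threshold as the dashed line) for Ptges, Ptger4, Alox15, Alox5ap and Ptgs2 in HS_SCR minus 0.4% salt, under the fit as reported and each alternative (vertical axis); with a minimum mean of 5 FPKM, Alox15 and Ptgs2 are not in the fit. Alox5ap stays left of the line in every setting, and the other genes lie on either side of it.

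When the series of rat numbers entered as a factor, Ptger4 was no longer called (0.45, adjusted p = 0.0512), and Ptges (0.38, adjusted p = 0.0488), Alox15 (1.77, adjusted p = 0.0475) and Alox5ap (0.73, adjusted p = 0.0219) were. Of all 14338 tested loci, 1319 were called in HS_SCR minus 0.4% salt under this setting. The higher series alone holds the 3 rats of 0.4% salt and 1 of HS_SCR. In it, Alox15 was at 3.26 FPKM in that HS_SCR rat against 0.676 to 0.882, Alox5ap at 34.9 against 22.2 to 24.7, Ptges at 19.6 against 14.5 to 16.1 and Ptger4 at 9.32 against 5.60 to 6.44. With 1 rat on one side, and with that rat among those on which the calls rest, these values have no test and are no independent support. The lower series holds no 0.4% salt rat. Without HS_SCR replicate 3, the library that stands apart, all 4 genes were called as well. In all, 5192 of 14320 tested loci were called without that library, against 1874 of 14338 as reported. The adjusted p was 0.00164 for Alox15, 0.00136 for Alox5ap, 0.00883 for Ptges and 0.0101 for Ptger4.

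Between the libraries labelled HS_DT and HS_SCR, 0 of the 9 genes passed in limma, 4 of them at an unadjusted p under 0.05. Over all loci 0.00697% were called, which is 1 locus, Cldn7 (named after its value was seen), and 2732 loci were at an unadjusted p under 0.05. The 4 genes were those that rose in HS_SCR, and the FPKM values of HS_DT lay below those of HS_SCR for each. The difference was -0.34 ± 0.08 for Ptges (95% interval -0.52 to -0.15, adjusted p = 0.0898), -0.50 ± 0.14 for Alox5ap (-0.83 to -0.16, adjusted p = 0.133), -0.30 ± 0.10 for Ptger4 (-0.53 to -0.08, adjusted p = 0.163) and -1.21 ± 0.41 for Alox15 (-2.15 to -0.26, adjusted p = 0.177). Both comparisons use the same HS_SCR rats and are not independent. Ephx2 lay higher in HS_DT, so that 5 of 10 genes had ranges apart, 1 higher and 4 lower, where 21.6% of tested loci had ranges apart. The median difference of the 9 genes was -0.30, against -0.00 over all tested loci.

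That comparison changed with several settings. Without HS_SCR replicate 3, Ptges (-0.35, adjusted p = 0.0275), Alox15 (-1.69, adjusted p = 0.0150) and Alox5ap (-0.67, adjusted p = 0.0124) were called lower in HS_DT, and 2298 loci were called in all. Library weights also called Ptges, Alox15 and Alox5ap lower, among 1496 loci. No gene of the 9 was called, but 422 loci were, when the series of rat numbers entered as a factor, 154 at a minimum mean of 5 FPKM and 184 without HS_SCR replicate 1. The adjusted p over the alternatives ran from 0.0268 to 0.290 for Ptges, 0.0150 to 0.356 for Alox15, 0.0124 to 0.316 for Alox5ap and 0.0923 to 0.390 for Ptger4, with HS_DT lower in all of them. For the other genes the difference was 0.25 ± 0.27 for Ptgs2 (95% interval -0.36 to 0.87, adjusted p = 0.639), 0.21 ± 0.39 for Ptger3 (-0.68 to 1.11, adjusted p = 0.797) and -0.30 ± 0.33 for Hpgd (-1.04 to 0.44, adjusted p = 0.645). Ptgs1 (-0.39 to 0.17) and Ptger1 (-0.35 to 0.34) had intervals that reach both sides of 0.

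Between the libraries labelled HS_DT and 0.4% salt, 0 of the 9 genes passed in limma, 3 of them at an unadjusted p under 0.05. No tested locus was called (0%), with 1074 at an unadjusted p under 0.05. The values of HS_DT were higher than those of 0.4% salt for Alox15 (1.04 ± 0.41, 95% interval 0.10 to 1.99, adjusted p = 0.610) and Alox5ap (0.44 ± 0.14, 0.11 to 0.77, adjusted p = 0.50) and lower for Ptgs2. These 3 of 10 genes had ranges apart, 2 higher and 1 lower, where 23.8% of tested loci had ranges apart. The median difference of the 9 genes was 0.04, against 0.01 over all tested loci. Ptges (0.04 ± 0.08, 95% interval -0.14 to 0.23) and Ptger4 (0.20 ± 0.10, -0.02 to 0.43) overlapped with 0.4% salt. Library weights as an alternative gave 3 calls here, Alox15, Alox5ap and Ptger4, all higher in HS_DT, among 1805 loci called in all. When the series of rat numbers entered as a factor, the differences were 0.56 for Alox15 (adjusted p = 0.721) and 0.24 for Alox5ap (adjusted p = 0.623), and -0.76 for Ptger3 (adjusted p = 0.468), against -0.07 as reported.

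The other genes of these pathways were followed in 6 lists, in HS_SCR against 0.4% salt, where 13.1% of all tested loci were called. Of 12 tested phospholipases A2 and lipases, listed for arachidonate release, 4 rose and 0 fell, with a median change of 0.46. They were the phospholipases Pla2g2d (1.41 ± 0.25, adjusted p = 0.0126), Pla2g7 (1.24 ± 0.27, adjusted p = 0.0221), Pla2g2a (1.17 ± 0.20, adjusted p = 0.0121) and Pla2g15 (0.50 ± 0.10, adjusted p = 0.0212). Pla2g7 is a plasma type enzyme that cleaves platelet activating factor, and Pla2g15 is the lysosomal one. Pla2g2a, a secreted enzyme, was at 1.82, 2.87 and 2.29 FPKM in 0.4% salt, 6.79, 8.27 and 4.64 in HS_SCR, then 2.90, 3.62 and 4.12 in HS_DT, so that HS_SCR lay above both other groups.

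Of 7 other prostanoid synthases, 1 rose and 0 fell, with a median of 0.06. It was Tbxas1, the thromboxane synthase (0.82 ± 0.11, adjusted p = 0.00690), at 6.20 to 6.44 FPKM in 0.4% salt, 10.9 to 13.5 in HS_SCR, then 8.35 to 10.4 in HS_DT. Of 5 other prostanoid receptors, 2 rose and 0 fell, with a median of -0.05. They were Ptger2 (0.92 ± 0.18, adjusted p = 0.0166), which encodes EP2 and like EP4 raises cyclic AMP, and Ptgir (0.64 ± 0.16, adjusted p = 0.0345), the prostacyclin receptor. Ptger2 was at 1.59 to 1.86 FPKM in 0.4% salt, 3.08 to 5.39 in HS_SCR, then 2.44 to 3.47 in HS_DT.

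Of 6 genes of prostaglandin transport and breakdown, 0 rose and 2 fell, with a median of -0.48. Slc22a6, a proximal tubule transporter of organic anions, fell by 3.41 on the log2 scale (SE 0.86, adjusted p = 0.0369), and Ptgr2, a prostaglandin reductase, fell by 0.72 (SE 0.18, adjusted p = 0.0355). Of 7 other lipoxygenase and leukotriene genes, 1 rose and 0 fell, with a median of 0.07. It was Alox15b, a related lipoxygenase (1.28 ± 0.24, adjusted p = 0.0150), at 3.88, 3.25 and 4.21 FPKM in 0.4% salt, 8.31, 11.6 and 12.2 in HS_SCR, then 6.48, 3.46 and 7.45 in HS_DT. Of the summed FPKM of Alox15, Alox15b, Alox5 and Alox12, Alox15 made up 7.28% to 10.01% in 0.4% salt, 18.2% to 50.7% in HS_SCR, then 14.5% to 25.8% in HS_DT. The share was above that of 0.4% salt in all rats of both other groups (exact two-sided permutation p = 0.1 for each, adjusted p = 0.3).

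Of 9 epoxygenases, hydroxylases and other epoxide hydrolases, 0 passed in limma, with a median of -0.96. The 2 with the smallest p were Cyp4f1 (-2.19 ± 0.66, adjusted p = 0.0621) and Cyp2c23, an arachidonate epoxygenase of the rat kidney (-2.74 ± 0.92, adjusted p = 0.0810). The median over all tested loci was 0.02. In the other comparisons no list had a call. Between HS_DT and HS_SCR the list medians were -0.13 for arachidonate release, -0.03 for synthases, -0.06 for receptors, 0.31 for transport and breakdown, -0.12 for lipoxygenase and leukotriene genes and 0.44 for epoxygenases. Between HS_DT and 0.4% salt they were 0.25, 0.14, 0.03, -0.20, 0.09 and -0.30 in the same order. The smallest p of these lists against HS_SCR belonged to Pla2g2a (-0.71 ± 0.20, adjusted p = 0.126) and Alox15b (-0.82 ± 0.24, adjusted p = 0.135), both lower in HS_DT, and against 0.4% salt to Tbxas1 (0.54 ± 0.11, adjusted p = 0.314) and Pla2g2d (1.13 ± 0.25, adjusted p = 0.328), both higher in HS_DT.

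**Figure D4:**
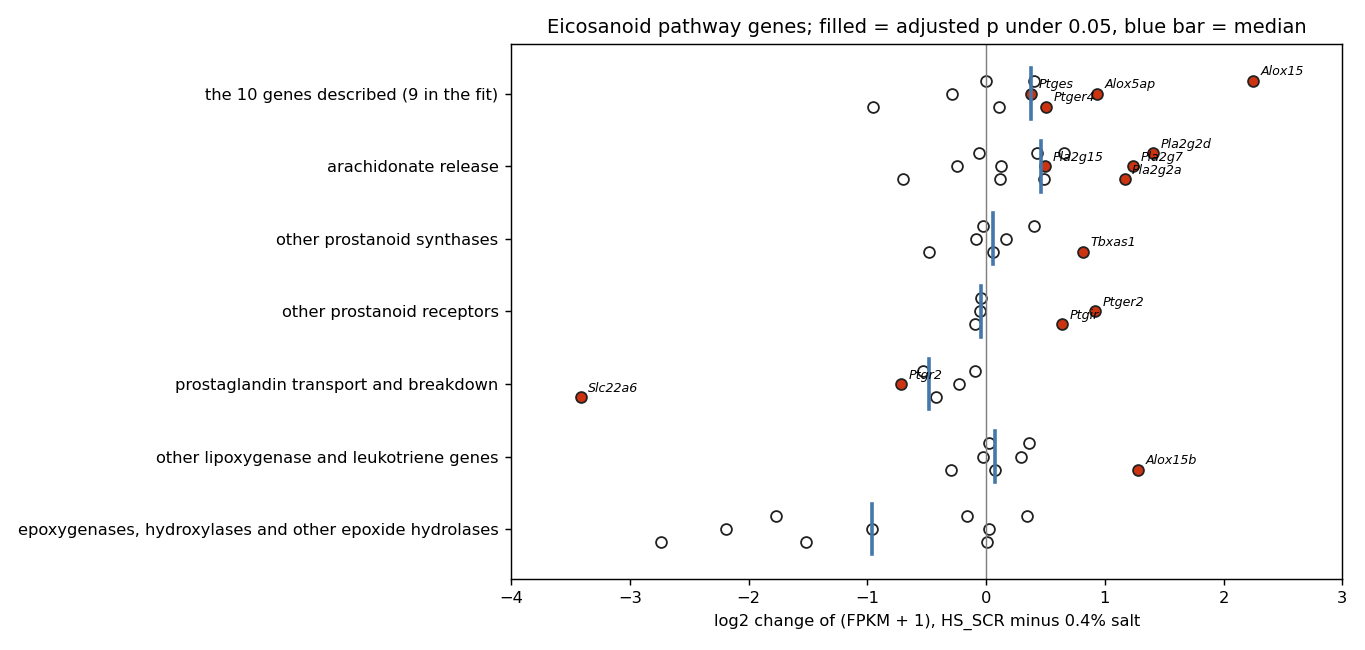
Change on the log2(FPKM + 1) scale from 0.4% salt to HS_SCR (horizontal axis) of each tested gene in the 10 genes described and in 6 lists of the same pathways (vertical axis); filled points have an adjusted p under 0.05 and the blue bar is the median. Filled points lie right of 0 in 5 of the 7 rows and left of 0 for Slc22a6 and Ptgr2.

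Markers of several cell types moved with these genes, in a comparison where 13.1% of all tested loci were called (HS_SCR against 0.4% salt). In tissue RNA, a change in the number of cells of a type and a change in RNA per cell cannot be told apart. Of 12 tested macrophage and monocyte markers, 7 rose and 1 fell from 0.4% salt to HS_SCR, with a median of 0.94. Their summed level was 1505 to 1723 FPKM in 0.4% salt, 2705 to 3719 in HS_SCR, then 2461 to 2774 in HS_DT, and Marco was at 0 in 7 of the 9 libraries. Of those that rose, the largest changes were in the complement genes C1qb (1.63 ± 0.15, adjusted p = 0.00564), C1qc (1.52 ± 0.11, adjusted p = 0.00219) and C1qa (1.28 ± 0.16, adjusted p = 0.00566) and in Mrc1, the mannose receptor (1.48 ± 0.31, adjusted p = 0.0214). Cx3cr1, a chemokine receptor of resident macrophages, was the one that fell. Cd163, a scavenger receptor of macrophages (named after its values were seen), did not pass (2.08 ± 1.27, adjusted p = 0.288): it was at 64.9 FPKM in HS_SCR replicate 3 and at most 0.989 in the other 8 libraries. HS_SCR replicate 3, with the lowest Alox15 and Alox5ap of its group, also had the lowest macrophage sum of its group. That sum is mostly the lysozyme gene Lyz2 (1597 FPKM in this rat, against 2303 and 2423). C1qa, C1qb, Csf1r, Aif1, Fcgr3a and Cx3cr1 were also lowest of the group in this rat, while Mrc1, C1qc, Cd68, Cd14, Cd163 and Marco were not.

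Of 5 tested neutrophil markers, 3 rose: S100a9 (4.50 ± 0.58, adjusted p = 0.00638), S100a8 (4.15 ± 0.69, adjusted p = 0.0106) and Lcn2 (2.00 ± 0.31, adjusted p = 0.00835), the last also made by injured tubules. The sum of the 13 measured was 126 to 199 FPKM in 0.4% salt, 431 to 1103 in HS_SCR, then 235 to 300 in HS_DT. That sum is mostly Lcn2, at 113 to 186, 352 to 850 and 205 to 256 FPKM in the same order of groups. Retnlg, another neutrophil gene that was tested, was lower in HS_SCR without passing (-1.13 ± 0.41, adjusted p = 0.1005), while the granule genes Mpo, Elane, Camp, Ngp and Ltf had means under 1 FPKM. Of 2 tested eosinophil and mast cell markers 1 rose, Siglec5, and the other, Kit, did not pass. Siglec5 was at 5.10 to 6.37 FPKM in 0.4% salt, 9.09 to 11.6 in HS_SCR and 10.4 to 14.1 in HS_DT. Kit was at 9.70 to 10.6, 6.27 to 13.2 and 10.3 to 10.7 FPKM in the same order of groups. The sum of the 14 measured, mostly these 2 genes, was 15.4 to 17.02 FPKM in 0.4% salt, 17.01 to 23.3 in HS_SCR and 21.5 to 24.7 in HS_DT. The mast cell genes Mcpt1, Tpsab1 and Tpsb2 were listed at 0 in every library, and the eosinophil peroxidase Epx was at most at 0.109 FPKM. Of 3 tested platelet markers 1 rose, Pf4 (1.43 ± 0.16, adjusted p = 0.00566), while Ppbp and Gp9 were near 0, and the sums were 19.4 to 27.6, 50.4 to 62.6 and 26.9 to 32.0 FPKM in the same order of groups. The part of these cells in the levels of Alox15, Alox5ap, Ptges and Ptger4 was not tested.

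**Figure D5:**
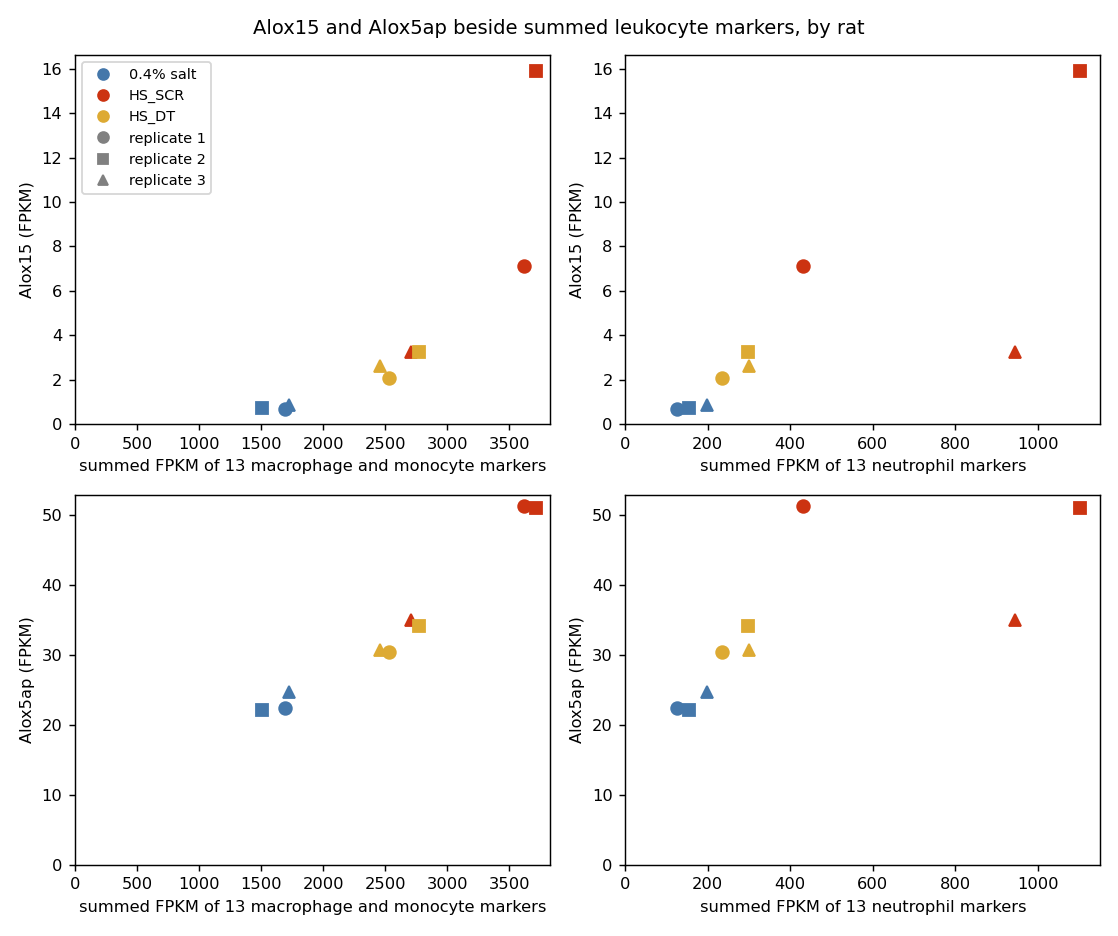
Alox15 (top) and Alox5ap (bottom) in FPKM against the summed FPKM of 13 macrophage and monocyte markers (left) and of 13 neutrophil markers (right, mostly Lcn2), 1 point per rat, colours for groups. The 3 rats of 0.4% salt are lowest on every axis, and HS_SCR replicate 2 is highest for both sums and for Alox15.

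Markers of tubule segments, the interstitium and vessels were counted in the same way, again beside 13.1% of all tested loci. Of 15 tested proximal tubule markers 3 fell (Miox, Slc34a1 and Gatm) and 0 rose, with a median of -2.79 and sums of 2745 to 6360 FPKM in 0.4% salt, 225 to 1920 in HS_SCR, then 1250 to 4245 in HS_DT. Slc22a6, which fell, is a transporter of this segment, and the part of the proximal tubule share in its level was not tested. Of 12 thick ascending limb markers 4 fell (Slc12a1, Egf, Casr and Tmem72) and 1 rose, with sums of 3108 to 4852, 1433 to 3496 and 2740 to 3741 FPKM in the same order of groups. Of 14 collecting duct markers, the segment that carries much of medullary Ptgs1, 0 passed in limma, with a median of 0.26 and sums of 1028 to 1786, 1603 to 2172 and 1156 to 1830 FPKM. Of 10 interstitial fibroblast and pericyte markers, a known site of medullary Ptgs2, 0 passed, and their sums were 1387 to 1910, 1834 to 1934 and 1821 to 1833 FPKM. Of 11 endothelial markers 2 rose, Pecam1 and Egfl7, and 0 fell, and of 4 tested podocyte markers 1 rose (Wt1) and 1 fell (Podxl).

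Over the 9 libraries, pairs of the 10 genes were correlated as a description, since the points share the group differences. Alox15 and Alox5ap were the closest (Pearson r = 0.966, Spearman rho = 0.967), followed by Ptger4 with Alox5ap (r = 0.864) and with Alox15 (r = 0.841). Alox5ap and Ephx2 ran opposite (r = -0.817). Of all tested single-symbol genes, those with the highest r to Alox15 were Minpp1 (0.980), Pla2g15 (0.979) and Ctsd (0.977), and those to Alox5ap were Ybx3 (0.990), Anp32b (0.989) and Gpx1 (0.988). Those to Ptger4 were Myc (0.981), Fstl3 (0.980) and Gprc5a (0.979), and those to Ptges were Mtch1 (0.978), Gtf2f1 (0.976) and Rps4x (0.974). Ptger3 ran closest to Mrps30 (0.980), Uqcr11 (0.980) and RGD1563941 (0.978). Ptgs2 ran closest to Atrx (0.935), Zfp248 (0.931) and Dnal1 (0.930). Ptgs1 ran closest to Itgb3bp (0.908), Bcam (0.899) and Fxyd4 (0.895), and Ptger1 to Kcne3 (0.936), Col11a1 (0.928) and Tmem56 (0.912). For Hpgd they were Gltpd2 (0.945), Zfp772 (0.936) and Pcp4l1 (0.930), but the rank correlation with Gltpd2 was 0.317, and Hpgd has its 1 high value in HS_SCR replicate 2. Each is the highest of very many correlations over 9 points, so a high r is a result of the choice.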

How the data were processed

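RNA of 9 rats was measured, 3 in each group, and groups were taken from the labels. The values are FPKM, computed by the authors and deposited at 30315 loci. Per the submitters' processing notes, Trim Galore 0.2.5, Cufflinks 2.2.1 and the build rn5 were used. For the aligner, the annotation and a possible scaling of libraries, the entry is: not given in the sources used here. Of the deposited columns, 1 was not used, since it repeats HS_DT replicate 3 at every locus. Libraries were matched to columns by the rat number of their titles.

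Values were analysed as log2(FPKM + 1), with a pseudocount of 1, at loci whose mean over the 9 libraries reached 1 FPKM, of which there were 14338. One limma-trend fit (limma 3.58.1, R 4.3.3) to all 9 libraries (residual degrees of freedom 6) gave two-sided tests, with p adjusted by Benjamini-Hochberg over all tested loci of a comparison. Per gene means are given with SD (n = 3) and changes with SE. The script was tested on simulated data. Fragment counts are not given, so depth is unknown and counting intervals cannot be had. Relative depth, read from loci with a mean under 0.15 FPKM, ran from 0.762 (HS_SCR replicate 2) to 1.37 (HS_DT replicate 2) of that of 0.4% salt replicate 1, as a rough estimate.

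All 10 genes are named, as are up to 4 called genes of each of 6 pathway lists and 10 marker lists, or genes with the smallest p where none was called, and the 3 genes closest in pattern to each of the 9 tested. The genes, the lists and these rules were chosen with earlier results of these data known. Alternatives were pseudocounts of 0.1 and 0.5, no filter, a minimum mean of 5 FPKM, median-ratio and quantile scaling, library weights, a fit of only the groups compared, a replicate block, a factor for the series of rat numbers, and omission of each library in turn.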

Additional observations from a re-analysis of the deposited data

How the results depend on the processing

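Of the changes of single genes over the 3 comparisons and the alternatives, 456 kept direction and side of the threshold, 11 passed newly, 13 no longer passed and 30 changed direction; the cause was not tested. From 0.4% salt to HS_SCR, 4 genes were called in the reported fit, 1 in the fit of those 2 groups, and 1 (without 0.4% salt replicate 1 or 2) to 4 on leaving out a library, with 2 without HS_SCR replicate 2. Loci called, 1874 as reported, numbered 4019 with library weights, 466 in the 2 groups only, and 345 to 5192 on leaving out a library: 445, 345 and 972 without 0.4% salt replicates 1, 2 and 3, 923 and 5192 without HS_SCR replicates 2 and 3, and 1078 without HS_DT replicate 2. Between HS_DT and HS_SCR, 0 genes were called as reported, 3 with library weights and 0 to 3 on leaving out a library (3 without HS_SCR replicate 3). Loci called, 1 as reported, numbered 3 with no filter, 154 at a minimum mean of 5 FPKM, 0 with quantile scaling, 1496 with library weights, 422 with the rat number series, 0 with the replicate block, and 0 to 2298 on leaving out a library (184 without HS_SCR replicate 1). Between HS_DT and 0.4% salt, library weights called 3 genes (Ptger4 0.29, adjusted p = 0.0317; Alox15 1.21, adjusted p = 0.00863; Alox5ap 0.52, adjusted p = 0.00531), against 0 as reported; loci called numbered 2 at a minimum mean of 5 FPKM, 1805 with library weights, 1 in the 2 groups only, and 0 to 10 on leaving out a library (1 without 0.4% salt replicate 3, 10 without HS_SCR replicate 3). The library weights were from a fit that stopped before its convergence tolerance.

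Directions that changed were all of differences that did not pass. From 0.4% salt to HS_SCR they were Ptger1 with median-ratio scaling (-0.00486), quantile scaling (-0.000780) and library weights (-0.17), Ptger3 with library weights (0.0715), and on leaving out a library Ptger1 (-0.15 to 0.15), Ptger3 (-0.565 to 0.241) and Hpgd (-0.0564 to 0.663). Between HS_DT and HS_SCR they were Ptger1 (0.0724) and Ptger3 (-0.108) with library weights, and on leaving out a library Ptger1 (-0.16 to 0.14), Ptger3 (-0.31 to 0.49) and Hpgd (-0.56 to 0.16). Between HS_DT and 0.4% salt they were Ptgs1 with median-ratio scaling (-0.00505), quantile scaling (-0.00107), library weights (-0.12) and the rat number series (-0.0232), Ptges with library weights (-0.0364), Ptger1 (0.12) and Hpgd (-0.12) with the rat number series, and on leaving out a library Ptgs1 (-0.115 to 0.0813), Ptger1 (-0.0763 to 0.0611) and Ptger3 (-0.185 to 0.0852). The labels tie no rats together by replicate number. Residuals of same-numbered libraries of different groups correlated above 0.1 in 5 of 9 pairs (-0.08 to 0.26). Those of differently numbered libraries did so in 2 of 18 pairs (-0.31 to 0.24). With the replicate block, 5 of the 9 genes passed from 0.4% salt to HS_SCR, Ptgs2 (-0.95, adjusted p = 0.0498) being added, and 1906 loci were called. The unknown depth leaves the counting error of low genes such as Ephx2 and Alox15 unknown.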
